A study of Mus musculus with 8 samples.

Results

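The genes described here are 40 genes of G2 and mitosis, taken from the 37980 gene rows of a sequencing experiment on multipotent progenitors (MPPs) of mouse bone marrow. They were chosen by name for their known roles, with earlier results of these data known. Among them were 9 entry kinases and cyclins with their regulators, 11 kinetochore and spindle checkpoint genes and 6 kinesins. The rest were 8 genes of the spindle and of cytokinesis and 6 genes of chromosome structure. All 40 had a row in the table. The study compared MPPs that express NUP98-HOXA10hd (NA), a fusion of part of the nucleoporin NUP98 with the DNA-binding homeodomain of HOXA10, with wild-type (WT) MPPs. Both groups were of C57BL/6 strain. Per the methods of the study, NA mice carried 1 copy of a targeted NA allele with a stop cassette between loxP sites (NA LSL/+) together with Vav-Cre, whose promoter is active in blood-forming cells, so the fusion was switched on in the blood system as a whole and not in MPPs alone. There were 4 NA MPP and 4 WT MPP libraries, each from 1000 cells in the gate Lin- CD48- CD150- c-kit+ Sca1+ CD135+, and they are named here NA1 to NA4 and WT1 to WT4. The labels give no age or sex, and they do not say whether the libraries of a group came from separate mice, so the p-values measure the spread between these libraries, which may be technical.

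MPPs feed all blood lineages but renew themselves poorly, and many of them divide. A dividing cell enters mitosis when the kinase Cdk1, bound to a B-type cyclin, is switched on. Motor proteins then build the spindle, kinetochores attach the condensed chromosomes to it, the spindle checkpoint delays their separation until every chromosome is attached, and a contractile ring splits the cell. Messenger RNAs of this machinery build up in late S phase and G2 and fall after division, so in a mixed population they are used as marks of cells that are in, or close to, mitosis.

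Estimated totals were 3876907 to 3960940 reads in NA4, WT2 and WT3 and 4779627 to 4916987 in the other libraries, a split called depth class below. Hoxa10, part of the fusion, lay between 298 and 371 normalised counts in NA libraries and between 130 and 149 in WT libraries, and its rise passed the test (limma adjusted p = 2.57e-05), whereas Nup98 was at 71.4 to 98 and 59.5 to 88.3 (limma adjusted p = 0.443). Of the genes of the sorting gate, Kit, Ly6a (Sca1) and Flt3 (CD135) lay between 1103 and 1614 in all libraries, and Ly6a was lower in NA MPPs (log2 fold change -0.28, limma adjusted p = 0.0257). Among genes of markers the sort selects against, Cd3e and Ly6g were at 0 in all 8, whereas Slamf1 (CD150) was at 3.69 to 47.9 and Itgam (Mac1) at 14.8 to 31.1. Sex-linked transcripts differed between the groups, and sex cannot be told apart from genotype: Xist, the female-specific transcript, lay between 869 and 1285 in WT libraries and at no more than 2.8 in NA libraries, and the Y-linked gene Eif2s3y was at 516 to 666 in NA libraries and at no more than 0.888 in WT libraries. The fourth library of each group stood apart. WT4 lay between the lowest and the highest of WT1, WT2 and WT3 for 75.2% of all genes tested, and NA4 between those of the other NA libraries for 67.7%, where the other 6 libraries gave 38.2% to 50.2%. NA4 and WT4 are counted as labelled, but the main results are also given without them.

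Mitotic genes were, for the most part, at higher values in NA MPPs, and a small number of them passed the test one by one. Of the 40 genes, 38 reached 10 normalised counts or more in 4 or more of the 8 libraries and were tested, whereas Cdc25c and Kif2c did not reach it. By limma with Benjamini-Hochberg adjustment over all 11451 genes tested, 7 of the 38 (18.4%) were higher in NA MPPs, against 10.1% of all genes tested. These were Nusap1, Aurkb, Prc1, Cenpf, Plk1, Ndc80 and Kif23. By limma 0 of the 38 were lower, against 7.87% of all genes tested, and at an unadjusted p below 0.05 the test gave 13 higher and 0 lower, where 16.9% of all genes tested were higher and 15.6% lower. The log2 fold change on the log2(normalised count + 1) scale was above 0 for 32 of 38 genes (84.2%), against 48.8% of all genes tested. Its median over the 38 was 0.47, against -0.01 over all genes tested, and it ran from -0.80 for Cenpe to 1.99 for Nusap1. Because the members were chosen with earlier results of these data known, these shares are a description and not a test. In samples of pooled cells, a different number of cells in mitosis and a different amount of these RNAs per cell cannot be told apart. From its own cell cycle analysis, the paper reports that NA MPPs were more quiescent than control MPPs. It also reports a cell cycle gene set as enriched in the NA MPP transcriptome. How either result relates to the values given here was not tested. Leaving out NA4 and WT4 kept the median, at 0.51, but only Kif23 then passed as higher and 0 genes as lower, where 3.31% and 1.27% of all genes tested did. Leaving out WT2 alone lowered the median to 0.26, with 28 genes above 0, and 4 genes passed as higher, where 9.43% of all genes tested did.

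**Figure D1:**
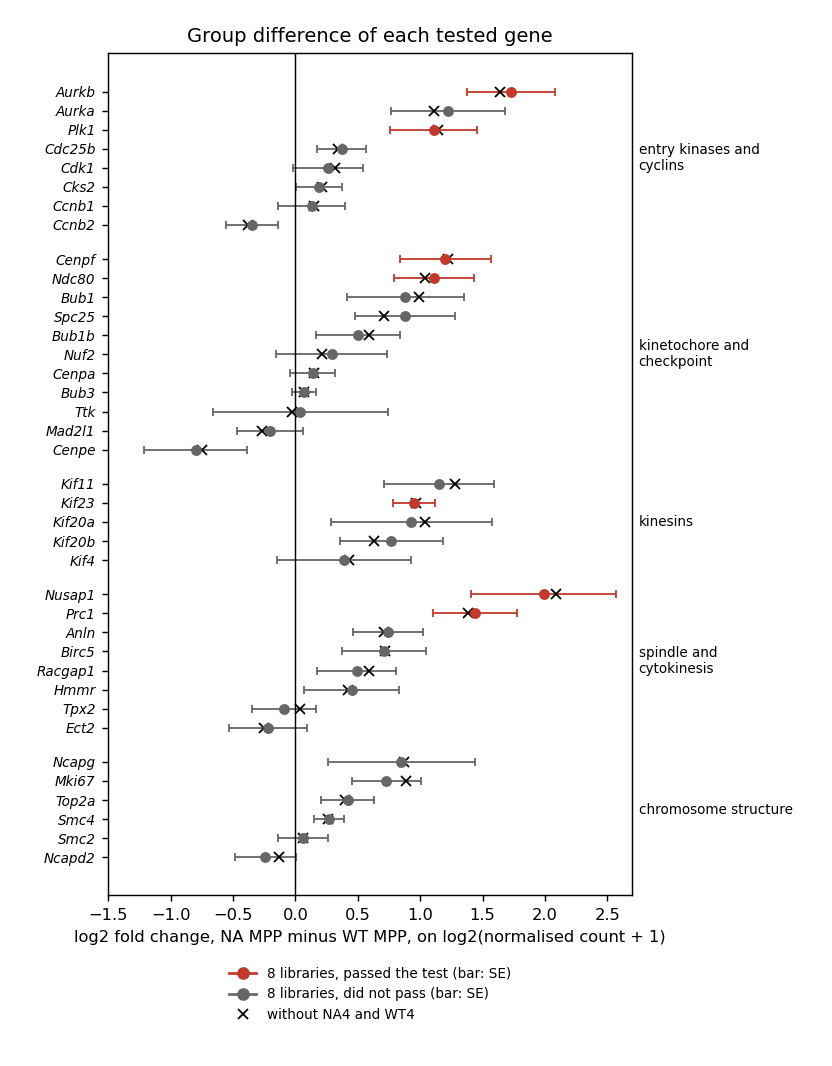
Group difference of the 38 tested genes by role, as log2 fold change of NA MPP over WT MPP on the log2(normalised count + 1) scale, with bars for the standard error and crosses for the value without NA4 and WT4. Red points passed the test, and the points run from -0.80 for Cenpe to 1.99 for Nusap1 with 32 of 38 to the right of 0.

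The called genes were spread over 4 of the 5 roles. Entry kinases and cyclins gave 2 of 8 tested genes with a median log2 fold change of 0.31, the kinetochore and checkpoint group 2 of 11 with a median of 0.29, kinesins 1 of 5 with a median of 0.93, and spindle and cytokinesis genes 2 of 8 with a median of 0.60. Chromosome structure genes gave 0 of 6 by limma with a median of 0.35, and 2 of them were higher at an unadjusted p below 0.05, where 16.9% of all genes tested were. Without WT2 the medians of these 5 roles were, in the same order, 0.19, 0.20, 0.65, 0.40 and 0.22, and 1, 0, 1, 2 and 0 genes passed by limma. NA and WT values did not overlap for 6 of the 38 genes, in each case with the higher values in NA MPPs, where 11.5% of all genes tested had higher and 10.5% had lower values in NA MPPs without overlap. Without NA4 and WT4, 7 genes did not overlap, where 12.9% of all genes tested had higher values in NA MPPs without overlap.

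Among the entry kinases and cyclins, Aurkb and Plk1 gave the calls. Aurkb (ENSMUSG00000020897, chr11:69045647-69051664 in mm10), the kinase of the chromosomal passenger complex that corrects faulty attachments and acts again in cytokinesis, was at 124, 74.3, 79.4 and 94.5 normalised counts in NA1 to NA4 and at 41.7, 12.5, 42.1 and 23.1 in WT1 to WT4. Every NA library lay above every WT library, and WT2 was the lowest. The group means were 93.1 ± 22.4 and 29.8 ± 14.6 (SD, n = 4 each), for a log2 fold change of 1.73 (SE 0.354, limma adjusted p = 0.00451). Aurkb passed in each of the 8 fits that left out 1 library and did not pass without NA4 and WT4 together (log2 fold change 1.64, limma adjusted p = 0.0582). Plk1 (ENSMUSG00000030867, chr7:122159439-122169873), a kinase needed from mitotic entry to cytokinesis, was at 38.3, 47.9, 25.9 and 36.6 in NA1 to NA4 and at 21.3, 10.2, 18.2 and 17.8 in WT1 to WT4. Its groups did not overlap either, with NA3 the lowest of the NA libraries and WT1 the highest of the WT libraries. The log2 fold change was 1.11 (SE 0.348, limma adjusted p = 0.0406), and the call was lost without NA1, NA2, NA4, WT2, WT3 or WT4 (limma adjusted p from 0.0522 to 0.111) and without NA4 and WT4 together (limma adjusted p = 0.21).

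Aurka, which matures the spindle poles, was at 42.9, 41.4 and 40.2 in NA1, NA2 and NA4 but at 12.9 in NA3, inside the WT range of 6.79 to 19.4. Its log2 fold change of 1.22 had a standard error of 0.457 and did not pass (limma adjusted p = 0.0797), and it passed when NA3 was left out (limma adjusted p = 0.0145). The engine of mitotic entry itself showed smaller differences. Cdk1 was at 102, 53.6, 51.7 and 72 in NA1 to NA4 and at 68.4, 36.2, 58.1 and 68.4 in WT1 to WT4, with overlapping groups and a log2 change of 0.26 (limma adjusted p = 0.559). Of its partner cyclins, Ccnb1 had a log2 change of 0.13 (limma adjusted p = 0.772), which was -0.07 without WT2. Ccnb2 was at 119 ± 14.1 in NA MPPs against 157 ± 46.6 in WT (SD, n = 4 each), and its log2 fold change of -0.35 did not pass (limma adjusted p = 0.268). The Cdk1-binding subunit Cks2 and the phosphatase Cdc25b, which activates Cdk1, had log2 fold changes of 0.19 and 0.37 and did not pass (limma adjusted p = 0.503 and 0.219). Cdc25c, a related phosphatase, was too low to test, at 8.46 to 11.8 in NA2, NA3 and NA4, 12.5 in WT3 and below 1 in the remaining libraries.

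**Figure D2:**
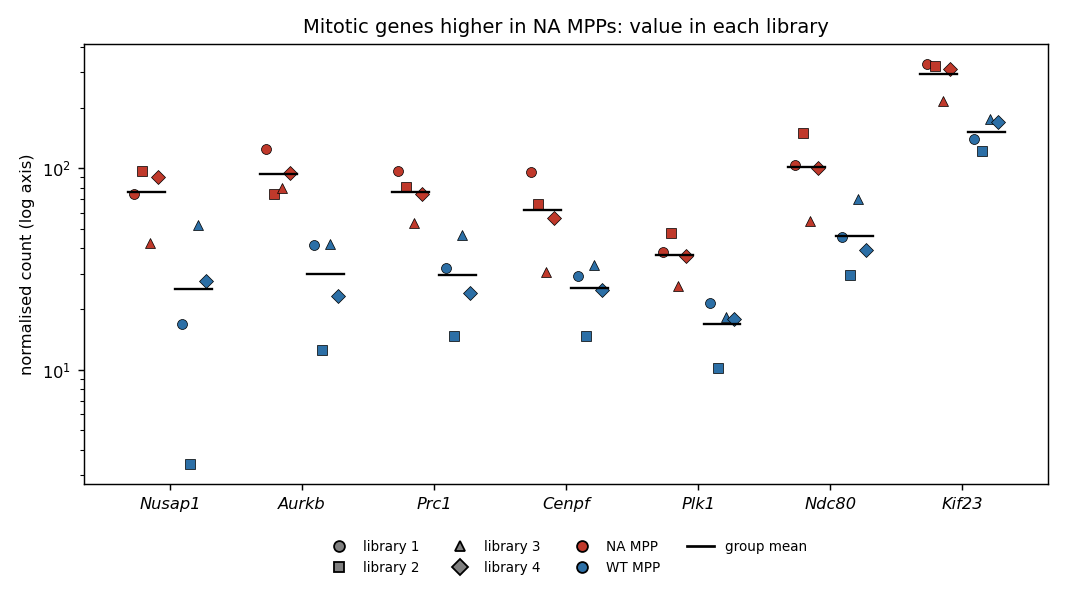
Normalised counts (log axis) of the 7 genes that passed the test, with 1 symbol per library and a line at each group mean. The groups are apart for Aurkb, Prc1, Plk1 and Kif23 and overlap for Nusap1, Cenpf and Ndc80, and the WT2 square is the lowest WT value of each gene.

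Among kinetochore genes, Ndc80 and Cenpf passed. Ndc80 (ENSMUSG00000024056, chr17:71496100-71526857), the subunit that gives the Ndc80 complex its name and grips the microtubule, was at 104, 149, 54.5 and 100 in NA1 to NA4 and at 45.3, 29.4, 70.6 and 39.1 in WT1 to WT4. NA3 lay below WT3, and otherwise the groups were apart. Its log2 fold change was 1.11 (SE 0.319, limma adjusted p = 0.0273). The call was lost without NA1, NA2, NA4, WT2 or WT4 (limma adjusted p from 0.0524 to 0.0883) and without NA4 and WT4 together (0.172). For the other subunits of the same complex that were examined, the log2 fold change was 0.88 for Spc25 (limma adjusted p = 0.145) and 0.29 for Nuf2 (limma adjusted p = 0.684), and the difference between the subunits was not tested. Spc25 was at 64.6 to 73.7 in NA1, NA3 and NA4 but at 19.7 in NA2, below all 4 WT libraries, and it passed when NA2 was left out (limma adjusted p = 0.013).

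Cenpf (ENSMUSG00000026605, chr1:189640606-189688086), a large protein that gathers at kinetochores in G2 and is degraded at the end of mitosis, was at 95.2, 66.7, 30.5 and 56.7 in NA1 to NA4 and at 29.3, 14.7, 33 and 24.9 in WT1 to WT4. Again NA3 alone reached into the WT range. The log2 fold change was 1.20 (SE 0.364, limma adjusted p = 0.0346), and the call was lost without NA1, NA2, NA4, WT2 or WT4 (limma adjusted p from 0.0746 to 0.0882) and without NA4 and WT4 together (0.171). Cenpe, a kinetochore motor, had the lowest log2 fold change of the 38 genes, at -0.80 with an SE of 0.409, and did not pass (limma adjusted p = 0.194). It was at 8.4 to 25.4 in NA and 21.5 to 46.2 in WT libraries, so only NA2 reached into the WT range. Cenpa, the histone H3 variant that marks centromeres, was one of the most abundant of these genes, at 307 ± 60.4 in NA MPPs against 283 ± 80.4 in WT (SD, n = 4 each), and did not pass (log2 fold change 0.14, limma adjusted p = 0.627). NA3, at 397, and WT2, at 400, were the highest libraries of their groups for Cenpa, although both were low for many other mitotic genes.

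Genes of the spindle checkpoint did not pass the test. The checkpoint kinases Bub1 and Ttk had log2 fold changes of 0.88 and 0.04, and their limma adjusted p-values were 0.21 and 0.974. Ttk varied most among the 38 tested members, from 4.67 to 52.6 in NA and from 4.53 to 23.1 in WT libraries, and its difference turned negative in 7 of 18 alternative fits. Bub1b, which holds back the anaphase-promoting complex, was at 24.9 in WT2 and 58.6 to 60.4 in the other WT libraries, with a log2 change of 0.50 (limma adjusted p = 0.323). Mad2l1, its partner in the inhibitory complex, was at 51.3 in NA1 and 105 to 127 in the other NA libraries, with a log2 change of -0.20 (limma adjusted p = 0.642). Bub3, the scaffold of the checkpoint, was steady, from 475 to 542 in NA and from 464 to 537 in WT libraries, with a log2 fold change of 0.07 and a standard error of 0.097 (limma adjusted p = 0.664).

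Kif23 was called in every fit that was run. Kif23 (ENSMUSG00000032254, chr9:61915905-61946774) is the motor of centralspindlin, which bundles microtubules at the cell's midzone and marks the plane of division. It was at 329, 322, 215 and 311 in NA1 to NA4 and at 139, 122, 176 and 169 in WT1 to WT4. All NA libraries lay above all WT libraries, and NA3 was nearest to them. The group means were 294 ± 53.2 and 152 ± 25.3 (SD, n = 4 each), and the log2 fold change of 0.95 with an SE of 0.169 passed (limma adjusted p = 0.00185). Kif23 passed in all 19 alternative fits, with log2 fold changes from 0.85 to 1.09, among them the fit without NA4 and WT4 (0.97, limma adjusted p = 0.0245).

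The other kinesins were scarce, and WT2 was well below the other WT libraries for Kif11, Kif20a and Kif4. Kif11, which pushes the spindle poles apart, was at 21.5, 34.8, 40.6 and 39 in NA1 to NA4 and at 23.1, 5.66, 13.7 and 22.2 in WT1 to WT4. Only NA1 fell within the WT range, and the log2 fold change of 1.15 did not pass (limma adjusted p = 0.083). Kif20a and Kif20b, which act at the midzone and in abscission, had log2 fold changes of 0.93 and 0.77 (limma adjusted p = 0.335 and 0.213). Kif20b was at 20.5, 15, 31.4 and 29.5 in NA1 to NA4 and at 23.1, 10.2, 10.2 and 12.4 in WT1 to WT4, so the groups overlapped and WT2 was level with WT3. For Kif20a, WT2 was at 1.13 and the other WT libraries at 8.88 to 21.6. Kif4, a motor that rides on chromosome arms and lies on chromosome X, was at 18.5 to 24.8 in NA libraries, at 3.4 in WT2 and at 20.4 to 29.6 in the other WT libraries. Its log2 fold change of 0.39 (limma adjusted p = 0.651) turned to -0.24 without WT2. Kif2c, which takes microtubules apart at centromeres, was not tested and lay between 4.67 and 8.31 in NA libraries and between 0 and 23.1 in WT libraries. The summed normalised counts of the 6 kinesins were 419, 411, 330 and 423 in NA1 to NA4 and 246, 143, 258 and 243 in WT1 to WT4, a ratio of the group means of 1.78, which was 1.59 without WT2. Kif23 carried most of these sums. The 5 kinesins other than Kif23 summed to 88 to 114 in NA libraries and 20 to 107 in WT libraries, a ratio of 1.43, or 1.16 without WT2.

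Microtubule bundlers led the spindle group. Prc1 (ENSMUSG00000038943, chr7:80294450-80316259), which crosslinks antiparallel microtubules at the midzone, was at 97.1, 80.8, 53.6 and 74.4 in NA1 to NA4 and at 32, 14.7, 46.7 and 24 in WT1 to WT4. The groups did not overlap. The log2 fold change was 1.44 (SE 0.334, limma adjusted p = 0.00956), and the call held in all 8 fits that left out 1 library and was lost without NA4 and WT4 together (1.38, limma adjusted p = 0.0918). Nusap1 (ENSMUSG00000027306, chr2:119618298-119651244), a bundler near the chromosomes, had the highest log2 fold change of the 38 genes, 1.99 (SE 0.581, limma adjusted p = 0.0298). It was at 74.7, 96.8, 42.5 and 90.9 in NA1 to NA4 and at 16.9, 3.4, 52.4 and 27.5 in WT1 to WT4. WT2 held 3 reads of Nusap1, and WT3 lay above NA3, so the groups overlapped. The call was lost without NA1, NA2, NA4 or WT1 (limma adjusted p from 0.0517 to 0.0926) and without NA4 and WT4 together (0.114). Without WT2 Nusap1 passed (limma adjusted p = 0.0379), but its log2 fold change was 1.29, below the 1.38 of Aurkb in the same fit.

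Anln, which organises actin and septins at the cleavage furrow, had tight and separate groups, at 41.1, 40.4, 38.8 and 46.1 in NA1 to NA4 and at 21.3, 20.4, 31.9 and 25.7 in WT1 to WT4, yet did not pass with the variance trend (log2 fold change 0.74, limma adjusted p = 0.0824). Without that trend it passed (limma adjusted p = 0.0202). Birc5, or survivin, the partner of Aurkb in the passenger complex, had a log2 change of 0.71 (limma adjusted p = 0.164), and Racgap1, the partner of Kif23 in centralspindlin, one of 0.49 (limma adjusted p = 0.302), and differences between partners were not tested. Racgap1 was level in NA libraries, at 93.3 to 108, and scattered in WT libraries, at 31.7 to 123. Ect2, the exchange factor that switches on RhoA at the furrow, had a log2 change of -0.22 (limma adjusted p = 0.662). For the spindle assembly factors Tpx2 and Hmmr the log2 fold changes were -0.09 and 0.45 (limma adjusted p = 0.836 and 0.447).

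Chromosome structure genes were more abundant, with a median of 136 normalised counts against 60.8 over all members, and none passed by limma. Mki67, which coats mitotic chromosomes and is a common mark of cycling cells, was at 119, 92.1, 132 and 92.1 in NA1 to NA4 and at 72.8, 34, 88.8 and 77.2 in WT1 to WT4. Its groups were apart, but the log2 fold change of 0.73 did not pass (limma adjusted p = 0.0803). Top2a, which untangles sister DNA, was at 190 ± 43.4 in NA MPPs against 142 ± 33.5 in WT (n = 4 each, SD; log2 fold change 0.42, limma adjusted p = 0.182). The condensin subunits Smc4, Smc2, Ncapg and Ncapd2, which compact chromosomes as 1 complex, had log2 fold changes of 0.27, 0.06, 0.85 and -0.24 (limma adjusted p = 0.131, 0.877, 0.334 and 0.529). Ncapg was at 4.53 in WT2 and 58.1 in WT3, the widest WT span among them on the log scale.

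Per kilobase of the longest protein-coding transcript, averaged over the 8 libraries, the level of Cks2 was the highest at 346 normalised counts, followed by Cenpa at 201, Bub3 at 148, Smc4 at 104, Ccnb2 at 90.3 and Kif23 at 65.6. Kif2c, Cenpe and Cdc25c were the lowest at 2.81, 2.97 and 2.99. Kif23 was the only gene among these most abundant 6 that passed the test, and the other called genes lay between 3.94 for Cenpf and 33.6 for Ndc80.

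The promoters of the members were examined for a pair of short elements known from cell cycle genes. The CHR element, whose common form is TTTGAA, is bound by the DREAM complex, which silences G2 and mitosis genes in resting cells, and by MuvB with B-Myb and FoxM1 at the time of their expression. CCAAT is bound by NF-Y. RefSeq windows from 250 bases before to 50 bases after each annotated start in GRCm38.p6, the same assembly as mm10, were found for 35 of 40 members, and Aurkb, Cdc25c, Kif20a, Smc4 and Tpx2 had none. TTTGAA on either strand stood in the windows of 26 of 35 members (74.3%), against 20.2% of 27025 genes with a window. CCAAT on either strand stood in 27 of 35 (77.1%) against 41.1%, and both in 22 of 35 (62.9%) against 7.97%. The 2 kinds of match overlapped in 0 member windows. A match is a description of the sequence and not a measured binding site. TTTGAA was found in 5 of the 6 called genes that had a window and in 21 of the 29 other members that had one (72.4%), and the difference was not tested.

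The stretch from 100 bases before to 10 bases after the start is printed for 3 genes that passed, Kif23, Prc1 and Cenpf, and for Cdk1, Ccnb1 and Ccnb2, which did not pass, since such elements stand in both kinds. Sequences run 5′ to 3′ on the strand of the gene, and capitals mark TTTGAA and CCAAT or their reverse complements TTCAAA and ATTGG.
Kif23, chr9:61946790-61946899, - strand: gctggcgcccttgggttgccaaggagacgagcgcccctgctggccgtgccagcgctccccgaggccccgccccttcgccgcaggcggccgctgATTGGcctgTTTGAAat
Prc1, chr7:80294351-80294460, + strand: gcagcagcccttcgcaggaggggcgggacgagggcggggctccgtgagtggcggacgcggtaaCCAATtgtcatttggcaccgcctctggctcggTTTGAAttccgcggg
Cenpf, chr1:189688077-189688186, - strand: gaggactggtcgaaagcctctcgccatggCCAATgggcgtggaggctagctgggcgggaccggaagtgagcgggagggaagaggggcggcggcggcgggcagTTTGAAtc
Cdk1, chr10:69352903-69353012, - strand: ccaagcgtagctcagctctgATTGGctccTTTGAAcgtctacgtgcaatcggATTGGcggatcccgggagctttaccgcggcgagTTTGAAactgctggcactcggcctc
Ccnb1, chr13:100786477-100786586, - strand: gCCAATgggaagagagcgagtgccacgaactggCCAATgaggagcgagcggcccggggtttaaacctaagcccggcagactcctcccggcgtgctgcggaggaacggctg
Ccnb2, chr9:70421545-70421654, - strand: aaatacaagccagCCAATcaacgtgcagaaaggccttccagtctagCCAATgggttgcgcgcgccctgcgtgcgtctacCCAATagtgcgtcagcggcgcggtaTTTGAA
In Kif23 the TTTGAA lies at position 3 and in Cenpf also at position 3, counted from 1 at the annotated first base, and in Prc1 at -5. Cdk1 has TTTGAA at -71 and at -15. Ccnb1 has CCAAT at -99 and at -67 and no TTTGAA in its window, and Ccnb2 has 3 copies of CCAAT before a TTTGAA at position 5. For Plk1 and Ndc80, both called, 30 bases around the match are shown, with the TTTGAA of Plk1 at position 31 and the TTCAAA of Ndc80 at position 30.
Plk1, chr7:122159453-122159482, + strand: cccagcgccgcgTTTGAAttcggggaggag
Ndc80, chr17:71526811-71526840, - strand: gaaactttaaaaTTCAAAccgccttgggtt
Within 100 bases of the start, 24 of the 35 members had a TTTGAA match. The window of Nusap1, which had the highest log2 fold change, held neither of the elements.

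Libraries of the same group differed from each other more for mitotic genes than for most genes. The median within-group SD on the log2 scale was 0.51 over the 38 tested members against 0.25 over all genes tested, and it was higher at each level of abundance. Between 10 and 50 normalised counts it was 0.67 for 16 members against 0.55 for all genes, between 50 and 200 it was 0.46 for 17 members against 0.29, and from 200 upwards it was 0.27 for 5 members against 0.17. Kinesins had the widest spread, 0.67, and chromosome structure genes the narrowest, 0.39. These were also the least and the most abundant roles, with medians of 19.8 and 136 normalised counts. The spread of the 5 roles fell as their median abundance rose. In WT MPPs the median SD of kinesins was 0.86 and in NA MPPs 0.35.

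Much of the WT spread came with a single library. WT2 held the lowest WT value for 32 of the 38 genes (84.2%), against 29.4% of all genes tested. This was so for 8 of 8 entry kinases and cyclins, 5 of 5 kinesins, 6 of 6 chromosome structure genes, 6 of 8 spindle and cytokinesis genes and 7 of 11 kinetochore and checkpoint genes. The exceptions were Bub1, Mad2l1, Cenpa, Spc25, Hmmr and Ect2. The median difference of WT2 from the mean of the other 3 WT libraries was -0.78 on the log2 scale over the 38 genes, and was furthest from 0 in kinesins, at -1.60, and nearest in the kinetochore and checkpoint group, at -0.51. Over all genes tested it was 0.02. WT2 had 3960940 estimated reads and WT3, which held the highest WT value for 21 of the 38 genes (55.3%), had 3876907. With depth class as a covariate, 4 of the 38 genes passed as higher by limma in place of 7. Over all genes tested, 971 did so in place of 1152.

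**Figure D3:**
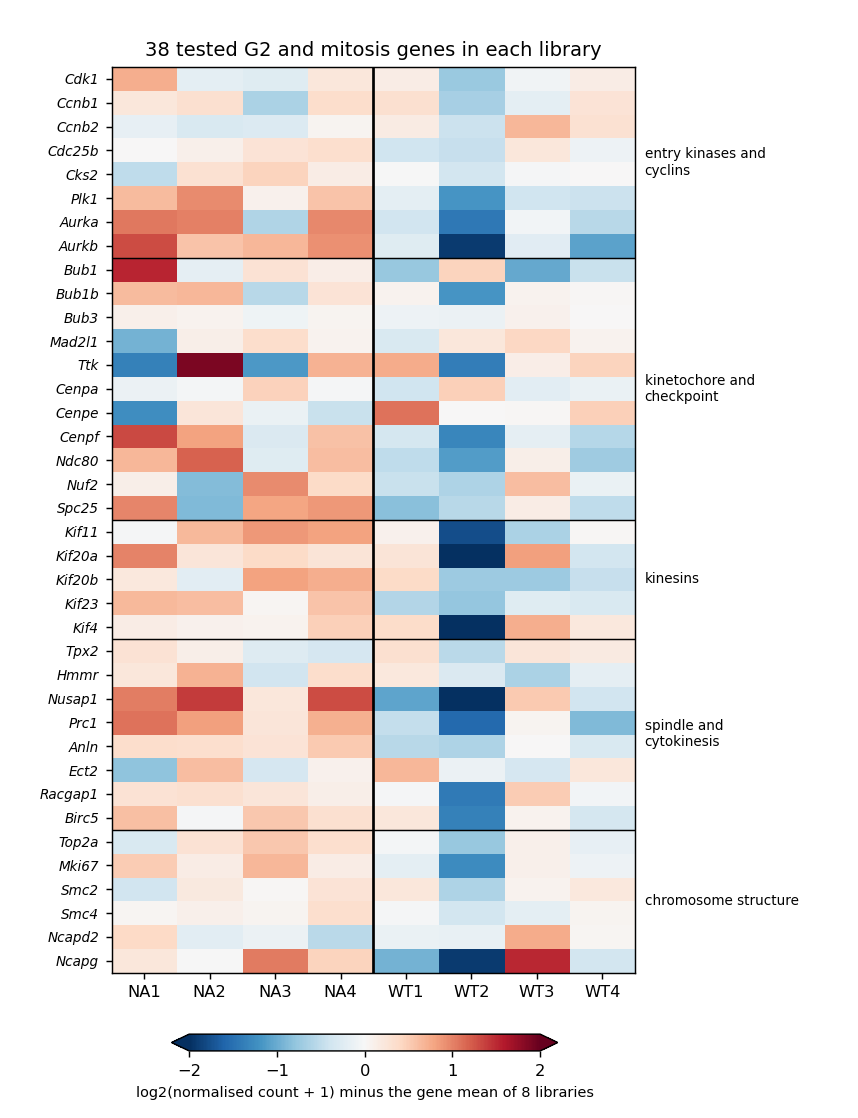
Each tested gene in each library, as log2(normalised count + 1) minus the mean of the gene over 8 libraries, with colours limited to the range -2 to 2 and genes ordered by role. The WT2 column is blue, or low, in nearly all rows and holds the lowest WT value in 32 of 38, while rows such as Cenpa and Bub1 are red in it.

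In NA MPPs no library stood so far from the others. NA3 was the lowest NA library for 14 of 38 genes (36.8%) and the highest for 9 (23.7%), with a median difference of -0.13 on the log2 scale from the mean of the other 3. It was the lowest for 6 of the 7 called genes, the exception being Aurkb, where NA2 was lower. The summed normalised counts of all 40 members were 4021, 4221, 3926 and 4255 in NA1 to NA4 and 3339, 2627, 3723 and 3408 in WT1 to WT4. The sums of the groups did not overlap, and the ratio of their means was 1.25, or 1.18 without WT2. Single libraries moved the number of members that passed by more than 1.5 times. It was 3 without NA1 or NA4 and 4 without NA2, WT2 or WT4. It was 8 without NA3, 6 without WT1 and 7 without WT3. Over all genes tested the number called higher moved too, from 1152 in the main fit. That number was 1186 without NA1, 675 without NA4, 878 without NA2, 1080 without WT2 and 801 without WT4. Without NA3, WT1 or WT3 it was 1175, 932 and 1008, in that order.

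**Figure D4:**
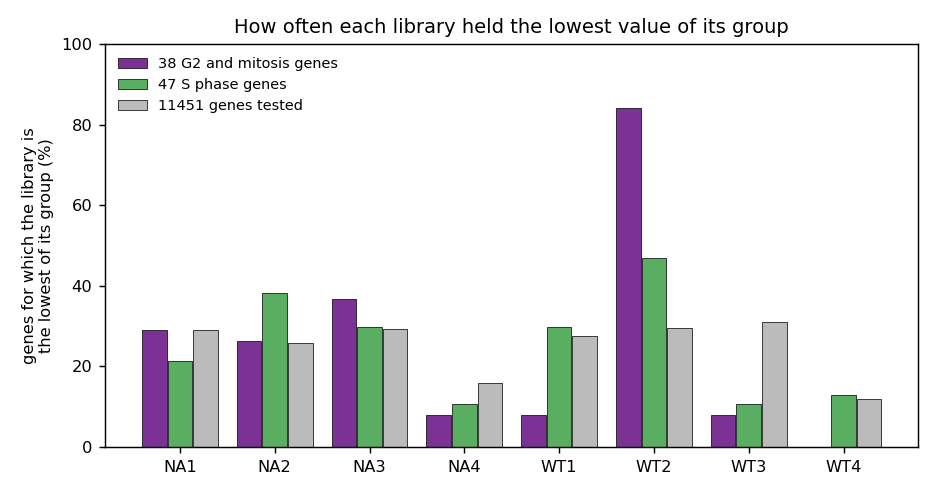
Share of genes (%) for which each library held the lowest value of its group, for 38 G2 and mitosis genes, 47 S phase genes and all 11451 genes tested. The WT2 bar reaches 84.2% for G2 and mitosis genes, 46.8% for S phase genes and 29.4% for all genes.

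Other genes of the same programme were listed for their roles, also with earlier results of these data known. Of 85 further G2 and mitosis genes, 76 were tested, of which 7 (9.21%) passed higher and 0 lower by limma, close to the share of all genes, and 17 were higher and 3 lower at an unadjusted p below 0.05, where 16.9% and 15.6% of all genes tested were. Their median log2 fold change was 0.42, or 0.23 without WT2, and 59 of 76 (77.6%) lay above 0. Sgo2a, a guardian of centromeric cohesion, had the largest called change, at 33.6, 16.9, 28.6 and 24.8 in NA1 to NA4 and at 6.21, 5.66, 2.28 and 7.99 in WT1 to WT4 (log2 fold change 2.10, SE 0.475, limma adjusted p = 0.00825). All NA libraries were higher than all WT libraries, but the reads of Sgo2a may be shared with its close relative Sgo2b. Every WT value of Sgo2a lay below the level of 10 normalised counts required for testing. It was therefore tested only because its NA values were high. The lowest library, WT3, held 2 estimated reads of Sgo2a, so the size of its change is uncertain. Kif15 and Depdc1a had the next largest changes, of 1.99 and 1.66, and did not pass (limma adjusted p = 0.0765 and 0.11).

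The other called genes were the kinetochore subunits Dsn1, Ska2 and Zwint, the cyclin Ccna2, the Cdk subunit Cks1b and the mitotic kinase Pbk. Zwint was at 685 ± 48.9 in NA MPPs against 493 ± 46.5 in WT (n = 4 each, SD; log2 fold change 0.48, limma adjusted p = 0.0055). Ccna2, which pairs with Cdk2 in S phase and with Cdk1 in G2, was at 228 ± 48.8 and 133 ± 20.7 (n = 4 each, SD; log2 fold change 0.76, limma adjusted p = 0.00946). For Dsn1 and Ska2 the log2 fold change was 0.89 each (limma adjusted p = 0.0183 and 0.0172), for Cks1b 0.47 (limma adjusted p = 0.0314) and for Pbk 0.86 (limma adjusted p = 0.0472). None of the 76 passed by limma without NA4 and WT4. The lowest values among them, which did not pass, were those of Lin37 at -0.58 and of Bora and Pmf1 at -0.51 (limma adjusted p = 0.0911, 0.0719 and 0.106). WT2 was the lowest WT library for 46 of the 76 (60.5%).

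Genes that drive or silence this programme, the transcription factors Foxm1 and Mybl2 and the MuvB subunits Lin9, Lin37, Lin52, Lin54 and Rbbp4, did not pass the test. By limma 0 of the 7 were called, and at an unadjusted p below 0.05 there were 0 higher and 1 lower. Their median log2 fold change was 0.17, or 0.04 without NA4 and WT4, and their summed normalised counts ran from 551 to 698 in NA libraries and from 607 to 670 in WT libraries.

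S phase genes, of the preceding stage of the cycle, had a median nearer to no difference but also leaned to higher values in NA MPPs. Their log2 fold change was above 0 for 33 of the 47 tested (70.2%), against 48.8% of all genes tested. Of 50 listed genes 47 were tested, with 3 higher (6.38%) and 2 lower by limma, where 10.1% and 7.87% of all genes tested were, and a median log2 fold change of 0.09, or 0.06 without WT2. Rrm2, a subunit of ribonucleotide reductase, was at 29.9, 31, 42.5 and 30.7 in NA1 to NA4 and at 10.7, 7.93, 11.4 and 9.77 in WT1 to WT4 (log2 fold change 1.65, limma adjusted p = 0.00566). Rfc4, of the clamp loader, and Slbp, which binds histone messenger RNA, had log2 fold changes of 0.97 and 0.46 (limma adjusted p = 0.00326 and 0.0173). In the other direction, Mcm7, of the replicative helicase, was at 319 ± 12 in NA MPPs against 490 ± 48.4 in WT (SD, n = 4 each) and fell by 0.62 on the log2 scale (limma adjusted p = 0.00143). Pold2, of DNA polymerase delta, fell by 0.71 (limma adjusted p = 0.0067). Ung and Chaf1a, at 1.23 and 1.03, and Rpa1, at -0.37, did not pass (limma adjusted p = 0.0804, 0.199 and 0.186). Without NA4 and WT4 only Mcm7 of the 47 passed (limma adjusted p = 0.0428). WT2 was the lowest WT library for 22 of the 47 S phase genes (46.8%), with a median difference of -0.17 from the mean of the other 3. The S phase and G2 lists shared no gene, and the difference between their medians was not tested.

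Transcripts of other blood cell types also differed between the groups. The summed normalised counts of 9 erythroid markers ran from 194 to 229 in NA libraries and from 381 to 496 in WT libraries. Those of 10 granulocyte and monocyte markers ran from 3139 to 3376 and from 3583 to 4600, with Elane at 0 throughout. Neither pair of ranges overlapped, and the higher values were in WT MPPs, opposite to the mitotic genes. A few abundant genes carried most of these sums. Hbb-bt had means of 41.2 in NA and 163 in WT MPPs, and Tfrc 162 and 219 (limma adjusted p = 6.79e-05 and 0.0634). Prtn3 had means of 1523 and 2028, and Lyz2 1697 and 1828 (limma adjusted p = 0.0181 and 0.364). Ctsg, Ly6c2, S100a8 and Csf1r were too low to test. Ranges overlapped for 8 megakaryocyte markers, at 2818 to 3118 and 2674 to 2822, for 10 B cell markers, at 116 to 278 and 238 to 307 with 3 at 0 throughout, for 10 T and NK cell markers, at 262 to 358 and 313 to 448 with 5 at 0 throughout, among them Cd3e, Cd3d and Cd3g, and for 8 mast cell and basophil markers, at 18 to 26 and 1 to 20 with 5 at 0 throughout. Cd48, which the sort selects against, was at 12.2 to 22.4 in NA and 34.2 to 83.8 in WT libraries (limma adjusted p = 0.00711), with the highest value in WT2. The part of these transcripts in the differences of mitotic genes was not tested.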

How the data were processed

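RNA of 1000 sorted MPPs per library was reverse-transcribed, amplified and made into tagmentation libraries. The authors quantified genes with RSEM and normalised them with DESeq2, and the submitters' processing notes name mm10. Versions, annotation and strand use were not given in the sources used here. The deposited values are a normalised signal: whole multiples, in 98.6% to 99.0% of values over 0.5 (tolerance 0.1), of a step between 0.8878 and 1.1811 per library. Dividing by the step gave the estimated reads. Fractional values below 1 read remained, so whole reads could not be recovered and no count test was run. Symbols, lengths and coordinates came from GENCODE M21 (93.8% of rows above 0 named).

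Genes with at least 10 in at least 4 of 8 libraries entered a linear model (limma 3.58.1, R 4.3.3) of log2(normalised count + 1) with a variance trend and no covariate, at a Benjamini-Hochberg adjusted p of 0.05. The added 1 shrinks changes of low genes, and reads of amplified cDNA are not independent molecules. The test was checked on simulated data with independent noise in each gene, which does not cover shifts shared by many genes of a library. All 40 members are named, with the called genes and largest changes of the comparison lists, the 2 genes of the fusion, sex-linked transcripts and markers, apart from a marker gene that is not reported here. The members and lists were chosen with earlier results of these data known. Alternatives changed scaling, filter, pseudocount, variance trend, covariates and libraries.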

Additional observations from a re-analysis of the deposited data

Results flagged for a closer look

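In 9 of 84 groups of 4 values, 1 library lay further from the nearest of the other 3 than Dixon's 95% critical value allows. A rate of 1 in 20 groups would give about 4.2, but it holds for independent and normally distributed values. The genes share the same 8 libraries, so the 9 were not tested against that number. NA3 gave 4 of the 9. Ccnb1 was at 59.1 normalised counts in NA3 and at 107 to 117 in the other NA libraries, Aurka at 12.9 against 40.2 to 42.9, and Kif23 at 215 against 311 to 329, whereas Cenpa was higher in NA3, at 397 against 267 to 283. WT2 gave 3, all low: Cks2 at 181 against 232 to 235 in the other WT libraries, Bub1b at 24.9 against 58.6 to 60.4, and Tpx2 at 40.8 against 67.5 to 74.6. Cdc25c was at 0.933 in NA1 against 8.46 to 11.8 in the other NA libraries, and Spc25 at 19.7 in NA2 against 64.6 to 73.7.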

How the results depend on the processing

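Kif23 passed by limma in all 19 alternatives, Aurkb and Prc1 in 18 each, Nusap1 in 11, Ndc80 in 10, Cenpf in 8 of 18 and Plk1 in 7 of 18. The number of members called higher, 7 as reported, was 3 without a filter on low values, 4 with depth class as a covariate and 1 without NA4 and WT4. It ran from 3 to 8 when 1 library was left out. Over all genes tested, 1152 were higher as reported, 971 with depth class and 379 without NA4 and WT4. Without the filter 870 were, from a larger set of genes. When 1 library was left out, 675 to 1186 of all genes tested were higher. Scaling by the total count gave 6 members called higher. This scaling moved the split of all called genes from 1152 higher and 901 lower to 925 and 1314. The median of all genes moved from -0.011 to -0.079. Without NA4 and WT4, the further G2 and mitosis genes gave 0 calls and the S phase genes 0 higher and 1 lower. When 1 library was left out, the further G2 and mitosis genes gave 3 to 8 higher and 0 to 2 lower, and 1 of them was lower under total count scaling or with the GC trend removed.

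Whether the library numbers pair the samples was not tested. Same-numbered libraries had weak positive correlations of their deviations from the group means, of 0.0874, 0.0271, 0.0131 and 0.158. In this comparison 4 of 8 libraries correlated best with their own number. With the number as a replicate block, 6 members were called higher and 0 lower, at a median log2 fold change of 0.47, with 5 further G2 and mitosis genes higher. Plk1 and Ndc80 no longer passed (limma adjusted p = 0.064 and 0.0545), and Mki67 did (limma adjusted p = 0.0488).

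Of 706 values of single members across alternatives, 19 changed sign, in 8 genes, none of which passed as reported. Under total count scaling these were Bub3 at -0.0012, Ttk at -0.02 and Smc2 at -0.01, with depth class Ttk at -0.03, and with the GC trend removed Bub3 at -0.09, Ttk at -0.10 and Smc2 at -0.12. Without NA4 and WT4 Ttk was at -0.03 and Tpx2 at 0.04. With 1 library left out they were Mad2l1 at 0.08 and Ect2 at 0.0099 (without NA1), Ttk at -0.58 (NA2), Ttk at -0.18, Tpx2 at 0.001 and Smc2 at -0.02 (NA4), and Ccnb1 at -0.07, Ttk at -0.41, Kif4 at -0.24 and Smc2 at -0.14 (WT2). Over the fits without 1 library, Ccnb1 reached 0.36, Mad2l1 -0.35, Ttk 0.50, Kif4 0.70, Tpx2 -0.29, Ect2 -0.46 and Smc2 0.19 at the other end. Fits without a library hold fewer samples, and for the other alternatives the cause was not tested. The planned edgeR and DESeq2 tests on whole reads were not run. The lowest library held 3 estimated reads of Nusap1 and 4 of Ttk.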
